A study of Mus musculus with 6 samples.

Results

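Transcripts of the integrated stress response and of amino acid supply were followed in brown adipocytes differentiated in culture from precursors of both genotypes, WT and Ucp1-KO. The set holds 41 genes, named by symbol, of the 22466 genes with a RefSeq transcript. For 10 of the 41 genes the table lists more than 1 RefSeq transcript. The one with the highest mean over all cultures was taken, and the next transcript reached 88.9% to 100% of the level of the chosen one. Members were sorted by role into 12 sensors and regulators, 3 secreted factors, 9 enzymes of amino acid and one-carbon synthesis, 6 amino acid transporters and 11 tRNA synthetases and tRNA exporters. The set was put together with results of these libraries known, so its behavior across the cultures is given as a description.

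Brown adipocyte precursors from the stromal-vascular fraction of interscapular brown fat were differentiated in culture, and total RNA was sequenced. All mice were young males of strain 129SvEvS1, wild type (WT) or lacking functional Ucp1, the uncoupling protein of brown fat (Ucp1-KO). Both genotypes received the same induction cocktail, followed by insulin, T3 and rosiglitazone, and no adrenergic stimulus is named for these libraries. Each genotype is represented by 3 independent cultures, numbered 10 to 12 (WT) and 13 to 15 (Ucp1-KO) in the sample labels. Whether a culture came from 1 animal or a pool is not given in the sources used here. The KO allele still gives rise to an untranslated remnant transcript, which is counted as Ucp1: it stood at 1775, 981 and 1157 RPKM (mapped reads scaled to transcript length and library size) in the WT cultures and at 307, 409 and 398 RPKM in the Ucp1-KO cultures. The genotypes did not overlap, in keeping with the labels. An exact permutation test (two-sided) gave p = 0.1, which is the minimum for 3 against 3 cultures, and the adjusted p of limma was 0.868. The totals recovered from the RPKM values lay between 14989610 and 17727655 reads per culture. Markers of fat cells were abundant in all cultures, with summed levels of 10 genes between 31505 and 35146 RPKM.

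The integrated stress response links several stresses to 1 outcome. Kinases that sense unfolded protein in the endoplasmic reticulum (ER), lack of amino acids, heme shortage or double-stranded RNA phosphorylate the translation factor eIF2, which slows protein synthesis in general while the mRNA of the transcription factor ATF4 is translated better. ATF4 and its partners then raise transcripts for amino acid synthesis, uptake and tRNA charging, together with feedback regulators. Mitochondrial stress feeds into the same response in many cells, and in fat it can include the secreted factors Fgf21 and Gdf15.

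ATF4 binds with C/EBP partners to a composite element, and the core used here was written TGATGNAA and searched on both strands. In the RefSeq promoter windows of GRCm38.p6, which run from 250 bases before to 50 bases after a transcript start, 33 of the 41 members had a window and 10 of these, or 30.3%, held the core. It was present in 3.97% of all 32851 windows, in 4.51% of all genes with a window, and in 260 of 9747 genes (2.67%) that passed the abundance minimum described below. In the lists of other pathway genes described below, 5 of 15 further ATF4-related genes and 2 of 7 other cytosolic tRNA synthetases held the core. So did 1 of 11 genes for eIF2 and its regulators and 1 of 13 ER chaperones. It was held by 0 of 14 mitochondrial synthetases and 0 of 7 mitochondrial chaperones and proteases. Members with the core were Nupr1, Trib3, Chac1, Fgf21, Asns, Pycr1, Slc7a11, Aars, Gars and Tars. Members with no window in the table were Eif4ebp1, Cth, Slc7a5, Slc7a3, Wars, Nars, Lars and Cars. The core alone is a description of letters and was not tested as a binding site. The stretches around the core are shown for the first 6 of these members in the order of roles, whatever their spread. The within-genotype spread of these 6, described below, exceeded that of 84.7% to 99.8% of all transcripts tested. For Slc7a11, Aars, Gars and Tars, which come later in that order and hold the core as well, it exceeded that of 7.34% to 55.7%. The stretches are written 5′ to 3′ in the direction of the gene, with the core in capitals, read as TGATGNAA or as its reverse complement.
Nupr1: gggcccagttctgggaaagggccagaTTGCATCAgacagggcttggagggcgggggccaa
Trib3: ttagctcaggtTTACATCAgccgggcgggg
Chac1: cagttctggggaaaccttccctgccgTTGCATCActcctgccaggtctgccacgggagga
Fgf21: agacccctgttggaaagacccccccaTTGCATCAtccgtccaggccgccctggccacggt
Asns: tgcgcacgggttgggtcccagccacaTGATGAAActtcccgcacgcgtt
Pycr1: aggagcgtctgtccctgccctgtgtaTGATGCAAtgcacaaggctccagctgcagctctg

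These stretches lie at chr7:126625547-126625606 on the minus strand for Nupr1, at chr2:152344028-152344057 on the minus strand for Trib3 and at chr2:119351023-119351082 on the plus strand for Chac1. Those of Fgf21, Asns and Pycr1 lie on the minus strand at chr7:45615596-45615655, chr6:7693210-7693258 and chr11:120643818-120643877. The first base of the core was at position -110 from the transcript start in Nupr1, -193 in Chac1, -139 in Fgf21, -23 in Asns and -103 in Pycr1. In Trib3 it was at position 15 and so inside the transcribed part, of which only a short stretch is shown. In Nupr1, Chac1, Fgf21 and Trib3 the core ran on the strand opposite to the gene.

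All 41 genes were detected, and 40 reached the minimum mean of 0.5 RPKM over the 6 cultures that was required for the comparison of genotypes. In the plot of members by culture, WT replicate 10 and Ucp1-KO replicate 13 form columns of low values through most of the set. WT replicate 10 was the lowest WT culture for 38 of the 40 tested members, against 56.1% of all 16865 transcripts tested. Ucp1-KO replicate 13 was the lowest Ucp1-KO culture for 34 members, against 45.1%, and both were lowest in their genotype for 33 members, against 33.9%. For 27 members both lay below all other 4 cultures, against 27.2%. At the other end, Ucp1-KO replicate 15 was the highest Ucp1-KO culture for 37 members, against 37.4%.

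**Figure D1:**
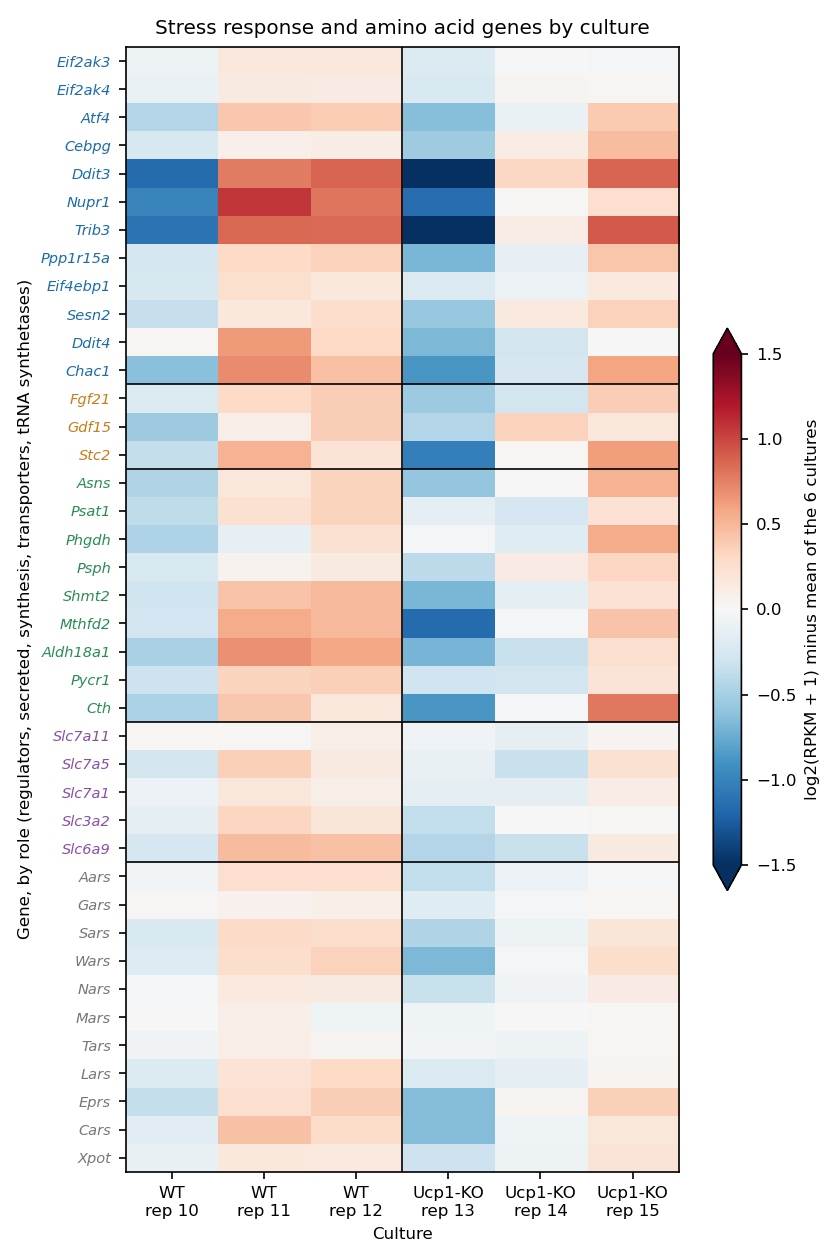
Heat map of the 40 tested members (rows, grouped by role and colored by role in the gene names) in the 6 cultures (columns). Color gives log2(RPKM + 1) minus the mean of the gene over the 6 cultures. WT replicate 10 and Ucp1-KO replicate 13 are low for most regulators and synthesis enzymes, and the deepest colors belong to Ddit3, Nupr1 and Trib3.

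Expressed as the median deviation of the members from their own mean over the 6 cultures, on the log2(RPKM + 1) scale, the WT cultures stood at -0.25, 0.26 and 0.27 and the Ucp1-KO cultures at -0.44, -0.07 and 0.22. Over all transcripts tested the same medians lay between -0.06 and 0.05, and were also lowest in WT replicate 10 (-0.06) and Ucp1-KO replicate 13 (-0.04). The low and the high cultures were therefore found within both genotypes. In total reads, WT replicate 10 (17070810) and Ucp1-KO replicate 13 (16150091) each held the middle place of their genotype.

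At the top of the pathway the members moved little. Eif2ak3 encodes PERK, the kinase that senses stress in the ER, and stood at 4.70, 5.72 and 5.77 RPKM in the WT cultures and at 4.24, 5.03 and 4.90 RPKM in the Ucp1-KO cultures. Eif2ak4 encodes GCN2, which senses uncharged tRNA, and stood at 3.81, 4.66 and 4.63 RPKM in WT and at 3.41, 4.31 and 4.24 RPKM in Ucp1-KO. The genotypes overlapped for both kinases, and no culture differed from another of its genotype by more than 1.27-fold. The exons of Eif2ak3 share 485 bases with an antisense gene model, and the library kit did not keep strand, so that reads of such pairs cannot be told apart.

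Atf4, the central transcription factor, was among the abundant members. Its transcript stood at 85.9, 156 and 153 RPKM in WT (132 ± 39.6, SD, n = 3) and at 74.9, 109 and 154 RPKM in Ucp1-KO (113 ± 39.5, SD, n = 3). WT replicate 10 and Ucp1-KO replicate 13 were the lowest pair, and Ucp1-KO replicate 15 reached the level of the high WT cultures. Its partner Cebpg, a C/EBP protein that dimerizes with ATF4, was measured at 18.6, 23.3 and 23.9 RPKM in WT and at 14.99, 23.9 and 30.9 RPKM in Ucp1-KO. The spread of Cebpg was wider among the Ucp1-KO cultures, 2.06-fold from lowest to highest, than among the WT cultures, 1.29-fold.

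The stress-inducible regulators downstream of ATF4 varied most. Ddit3 encodes CHOP, a transcription factor of prolonged stress, and stood at 44.1, 172 and 184 RPKM in the WT cultures and at 29.9, 124 and 184 RPKM in the Ucp1-KO cultures. Within WT the highest culture exceeded the lowest 4.17-fold and within Ucp1-KO 6.14-fold, and the lowest value still rested on 421 reads. The pooled within-genotype standard deviation (SD) of Ddit3, 1.26 on the log2 scale, exceeded that of 99.8% of all transcripts tested. The exons of Ddit3 share 68 bases with the opposite-strand gene Mars, described below, which hardly varied.

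Trib3, a pseudokinase that is induced by ATF4 and CHOP and restrains them, followed the same order of low cultures. It was measured at 11.7, 48.7 and 48.4 RPKM in WT and at 7.82, 28.5 and 50.6 RPKM in Ucp1-KO, which spans 4.17-fold and 6.48-fold. Nupr1, a small stress-induced chromatin protein, stood at 40.0, 171 and 142 RPKM in WT and at 36.3, 81.9 and 96.7 RPKM in Ucp1-KO. Its span was wider within WT, 4.29-fold, than within Ucp1-KO, 2.66-fold. Chac1, which degrades glutathione, reached 4.14, 11.9 and 9.85 RPKM in WT and 3.31, 5.62 and 10.9 RPKM in Ucp1-KO. Of all members, Ddit3, Trib3, Nupr1 and Chac1 had the widest within-genotype SD.

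**Figure D2:**
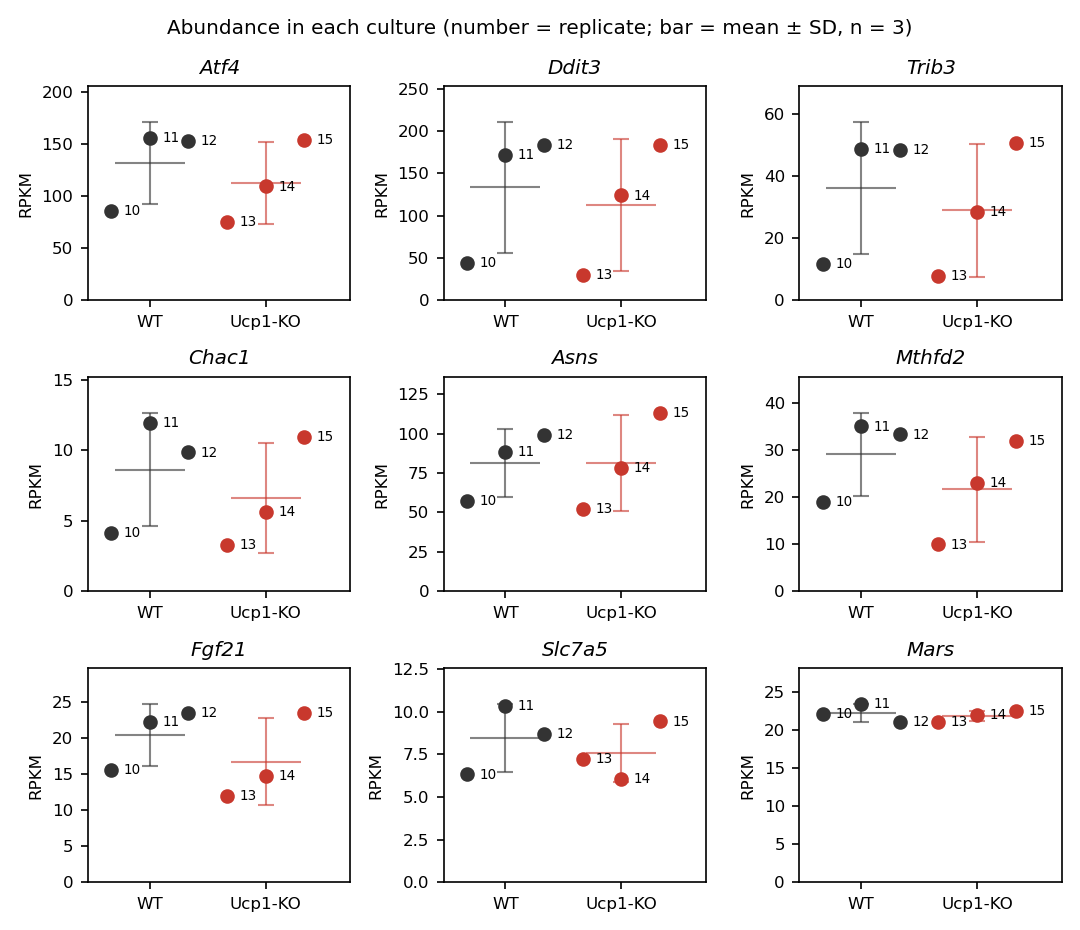
RPKM of 9 members in each culture (points, labelled by replicate number, WT black and Ucp1-KO red) with the mean ± SD of each genotype (n = 3), on linear axes from 0. For Ddit3 and Trib3, replicates 10 and 13 lie far below the other cultures, whereas the 6 values of Mars stay between 21.1 and 23.5 RPKM.

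The feedback and growth regulators varied less. Ppp1r15a encodes GADD34, the inducible subunit that directs eIF2 dephosphorylation, and was measured at 18.9, 28.1 and 28.9 RPKM in WT and at 13.6, 20.8 and 30.5 RPKM in Ucp1-KO. Sesn2, a stress-induced inhibitor of mTORC1, stood at 10.3, 15.1 and 16.2 RPKM in WT and at 8.74, 14.95 and 17.3 RPKM in Ucp1-KO. For both genes replicate 10 and replicate 13 were again the lowest cultures of their genotype. Eif4ebp1, the translation repressor 4E-BP1, was the most abundant member at 235, 327 and 311 RPKM in WT and at 240, 261 and 307 RPKM in Ucp1-KO, a span of no more than 1.39-fold.

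Ddit4, which encodes the mTORC1 inhibitor REDD1, was the one tested member whose genotypes did not overlap. It stood at 35.9, 55.8 and 43.7 RPKM in WT (45.1 ± 9.998, SD, n = 3) and at 21.8, 29.0 and 35.4 RPKM in Ucp1-KO (28.7 ± 6.84, SD, n = 3). The highest Ucp1-KO culture lay just below the lowest WT culture. An exact permutation test (two-sided) gave p = 0.1, and the adjusted p of limma was 0.868 with a log2 fold change of -0.64 ± 0.22 (SE), so the difference did not pass the test.

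The secreted factors showed the same low cultures. Fgf21, a hormone of nutrient and mitochondrial stress, was measured at 15.5, 22.3 and 23.5 RPKM in WT and at 12.03, 14.7 and 23.5 RPKM in Ucp1-KO. Gdf15, a stress cytokine acting on food intake, stood at 12.3, 19.7 and 23.9 RPKM in WT and at 13.3, 23.5 and 20.8 RPKM in Ucp1-KO. For Gdf15 the highest Ucp1-KO culture was replicate 14 and not replicate 15. Stc2, a secreted glycoprotein, reached 6.04, 11.997 and 9.41 RPKM in WT and 3.42, 8.25 and 12.9 RPKM in Ucp1-KO, a 3.78-fold span within Ucp1-KO against 1.98-fold within WT.

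Among the enzymes, WT replicate 10 was the lowest WT culture for all 9, and Ucp1-KO replicate 13 the lowest Ucp1-KO culture for 7. Asns, which makes asparagine, stood at 57.2, 88.4 and 98.9 RPKM in WT and at 52.3, 78.3 and 113 RPKM in Ucp1-KO. The genotype means of Asns were 81.5 ± 21.7 and 81.3 ± 30.6 RPKM (SD, n = 3 each), so that spread between cultures far exceeded the difference between genotypes. The mitochondrial one-carbon enzyme Shmt2 was measured at 31.5, 52.6 and 54.97 RPKM in WT and at 23.7, 34.9 and 45.3 RPKM in Ucp1-KO. Mthfd2, the next step of that pathway, spanned 1.84-fold within WT (19.1, 35.1 and 33.4 RPKM) and 3.21-fold within Ucp1-KO (9.99, 23.1 and 32.1 RPKM). In both genes the high WT cultures lay above every Ucp1-KO culture, and WT replicate 10 below replicates 14 and 15.

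Serine synthesis was less uniform. Phgdh, its first and rate-setting enzyme, was low in these cells at 1.78, 2.53 and 3.50 RPKM in WT and at 2.78, 2.39 and 4.64 RPKM in Ucp1-KO. The following enzyme Psat1 stood at 27.1, 41.6 and 44.9 RPKM in WT and at 32.0, 29.6 and 41.5 RPKM in Ucp1-KO. Phgdh and Psat1 were the enzymes for which replicate 14, and not 13, was the lowest Ucp1-KO culture. Psph, which completes the pathway, ranged from 16.1 to 21.1 RPKM in WT (19.9 RPKM in replicate 11) and stood at 14.3, 20.9 and 23.8 RPKM in Ucp1-KO, and its exons share 452 bases with the opposite-strand gene Cct6a.

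Proline synthesis is represented by Aldh18a1 and Pycr1, its first and last enzymes. Aldh18a1 was measured at 8.72, 20.9 and 19.3 RPKM in WT and at 7.37, 9.75 and 15.02 RPKM in Ucp1-KO. Pycr1 stood at 1.37, 2.69 and 2.75 RPKM in WT and at 1.38, 1.41 and 2.34 RPKM in Ucp1-KO. In both genes the WT cultures other than replicate 10 lay above every Ucp1-KO culture, while replicate 10 was as low as the low Ucp1-KO cultures. Cth, which makes cysteine from cystathionine, reached 4.85, 9.71 and 8.14 RPKM in WT and 3.44, 6.99 and 13.002 RPKM in Ucp1-KO, and here replicate 15 was the highest of all cultures.

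Transporters followed the pattern least. Slc7a11, the light chain of the cystine and glutamate exchanger, was near the abundance minimum at 0.667, 0.649 and 0.734 RPKM in WT and at 0.564, 0.484 and 0.680 RPKM in Ucp1-KO, although its promoter window holds the core. Its within-genotype SD was larger than that of only 7.37% of the transcripts tested, on a scale where adding 1 RPKM compresses low values. Slc7a5, the light chain of the exchanger of large neutral amino acids, stood at 6.34, 10.3 and 8.72 RPKM in WT and at 7.24, 6.06 and 9.44 RPKM in Ucp1-KO. The heavy chain shared by both exchangers, Slc3a2, was measured at 35.1, 49.0 and 44.2 RPKM in WT and at 29.97, 38.9 and 39.3 RPKM in Ucp1-KO. Both replicate 10 and replicate 13 were lowest in their genotype for 2 of the 5 tested transporters, Slc3a2 and Slc6a9.

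The glycine transporter gene Slc6a9 stood at 2.27, 4.41 and 4.29 RPKM in WT and at 1.87, 2.09 and 3.28 RPKM in Ucp1-KO. Its exons share 1429 bases with the opposite-strand gene Ccdc24, so that its level is uncertain. Slc7a1, a carrier of arginine and lysine, ranged from 4.15 to 5.42 RPKM over the 6 cultures. Slc7a3, a further carrier of basic amino acids, had a mean below the minimum and was not tested. It rested on 8, 7 and 7 reads in WT and on 3, 4 and 4 reads in Ucp1-KO. Its values did not overlap between genotypes (exact two-sided permutation test, p = 0.1), but the 95% Poisson intervals of all 6 cultures did, from 0.0853 to 0.389 RPKM in WT replicate 10 and from 0.0162 to 0.229 RPKM in Ucp1-KO replicate 13. These counts are too low to set the single cultures apart.

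The tRNA synthetases, which charge tRNAs with their amino acids, spanned less between cultures than the regulators, and replicates 10 and 13 were both lowest in their genotype for 9 of the 11 genes of this group. Eprs, which charges glutamate and proline, varied most in WT and stood at 54.8, 82.9 and 91.4 RPKM there and at 44.5, 72.0 and 90.1 RPKM in Ucp1-KO. Wars, for tryptophan, was measured at 37.1, 51.2 and 54.3 RPKM in WT and at 26.3, 41.8 and 51.1 RPKM in Ucp1-KO. Cars, for cysteine, reached 9.89, 15.6 and 13.9 RPKM in WT and 6.83, 10.8 and 12.8 RPKM in Ucp1-KO. In all of these genes replicates 10 and 13 held the lowest values of the 6 cultures. Aars, for alanine, stood at 39.1, 48.2 and 48.2 RPKM in WT and at 30.9, 38.04 and 40.3 RPKM in Ucp1-KO, and only replicate 15 of the Ucp1-KO cultures exceeded WT replicate 10. The exons of Aars share 1326 bases with Exosc6 on the same strand.

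Of the remaining synthetases, Sars (serine) and Lars (leucine) ranged from 29.1 to 49.2 and from 19.6 to 28.4 RPKM over all cultures, and Nars (asparagine) from 45.2 to 63.6 RPKM. Gars (glycine) was the most abundant of the group at 89.8 to 109 RPKM, yet spanned only 1.21-fold. Tars (threonine) ranged from 24.0 to 27.4 RPKM, and Mars (methionine) from 21.1 to 23.5 RPKM. Mars, Gars and Tars thus stayed within 1.21-fold over all 6 cultures, although Gars and Tars hold the core in their promoter windows. Xpot, which exports tRNA from the nucleus, ranged from 8.94 to 13.02 RPKM.

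The extent of this variation can be set beside that of all transcripts. The median pooled SD within genotypes was 0.36 for the members and 0.17 for all transcripts tested, both on the log2(RPKM + 1) scale. An SD above the median of all transcripts was seen for 33 of 40 members (50% by construction), and 17 members exceeded the 90th percentile. The highest WT culture reached at least 2 times the lowest for 7 members (8.99% of all transcripts tested) and the highest Ucp1-KO culture for 13 members (14.3%), among which 6 did so in both genotypes (5.57%). For 36 members in each genotype, the exact 95% Poisson intervals of the lowest and the highest culture did not overlap, against 54.7% of all transcripts in WT and 59.8% in Ucp1-KO. These intervals cover counting error only, since no molecular identifiers were used and reads can share a molecule. Tested members rested on 57 to 10814 reads per culture.

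**Figure D3:**
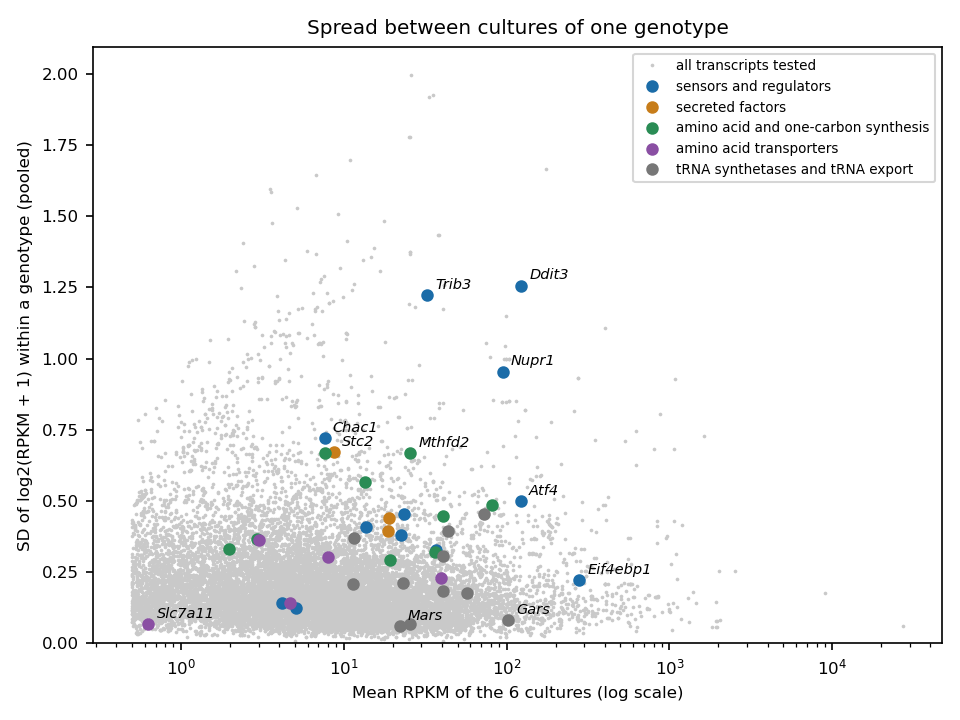
Pooled SD of log2(RPKM + 1) within genotypes (vertical axis, n = 3 cultures each) against mean RPKM of the 6 cultures (horizontal log axis). Gray points are all 16865 transcripts tested and colored points the 40 members by role. Ddit3, Trib3 and Nupr1 stand above most transcripts of their abundance, whereas Mars and Gars lie at the lower edge.

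The comparison of genotypes asked whether loss of Ucp1 alters these transcripts. No member passed an adjusted p of 0.05 in limma (0 of 40, against 0% of all transcripts tested), and the smallest adjusted p of a member was 0.868. Ucp1 itself, at 28.4% of its WT mean, did not pass either (limma, adjusted p of 0.868). Ddit4 was the 1 member with an unadjusted limma p below 0.05 (limma, unadjusted p = 0.022), against 5.54% of all transcripts. It was lower in Ucp1-KO, as were 3.24% of all transcripts at that level, and 0 members were higher, against 2.3%. In the alternative fit, limma-voom on the recovered reads also made 0 calls after adjustment. Genotypes did not overlap for 1 of the 40 members, against 11.2% of all transcripts, or 5.15% with the lower values in Ucp1-KO. The signs leaned one way: 36 members had a log2 fold change below 0, that is, a lower level in Ucp1-KO, against 50.4% of all transcripts, with a median of -0.19 against -0.0016. As the members moved together by culture, these signs are not independent of each other, and no test was made on them.

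**Figure D4:**
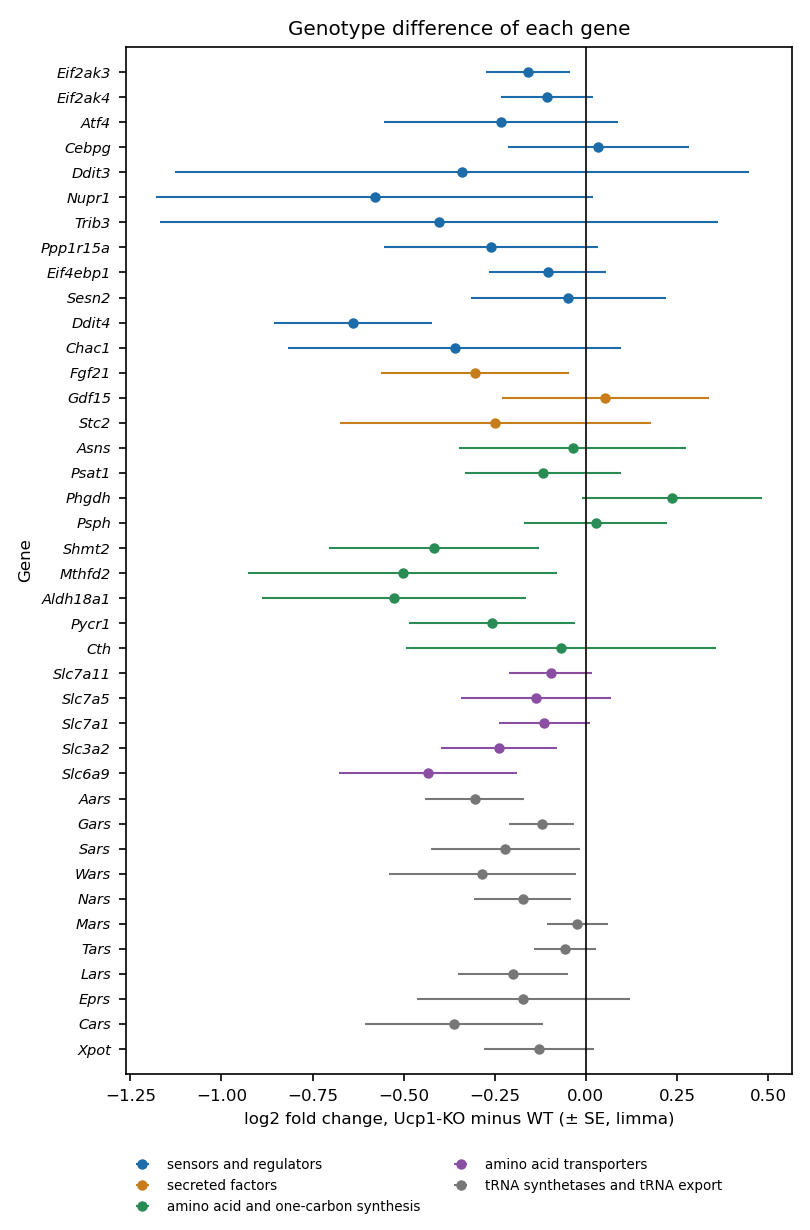
Log2 fold change on the log2(RPKM + 1) scale of each tested member, Ucp1-KO minus WT, with its standard error (limma, n = 3 per genotype), colored by role. Of the 40 points 36 lie below 0, and Ddit4 at -0.64 ± 0.22 is farthest from 0.

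By role, the median log2 fold change was -0.25 for the sensors and regulators, -0.25 for the secreted factors, -0.12 for the enzymes, -0.14 for the transporters and -0.17 for the tRNA synthetases and tRNA export. The widest errors belonged to the genes that varied most between cultures. Ddit3 differed by -0.34 ± 0.79, Trib3 by -0.40 ± 0.77 and Nupr1 by -0.58 ± 0.60 (SE). Errors of this size leave differences in either direction possible. For Nupr1 the value was -1.23 without WT replicate 10 and -0.16 without Ucp1-KO replicate 13. Atf4 differed by -0.23 ± 0.32, Asns by -0.04 ± 0.31, Aldh18a1 by -0.53 ± 0.36 and Mthfd2 by -0.50 ± 0.42. Leaving out Ucp1-KO replicate 13 brought Aldh18a1 to -0.31 and Mthfd2 to -0.05. The values farthest from 0 were -0.90 for Aldh18a1, with WT replicate 10 left out, and -0.84 for Mthfd2, with Ucp1-KO replicate 15 left out. The 4 members with a positive value were Phgdh (0.24 ± 0.25), Gdf15 (0.05 ± 0.28), Cebpg (0.03 ± 0.25) and Psph (0.03 ± 0.20). Without Ucp1-KO replicate 15 the value of Phgdh was 0.017. At the narrow end, Mars differed by -0.02 ± 0.08, Tars by -0.06 ± 0.09 and Gars by -0.12 ± 0.09.

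The counts of unadjusted calls and of members without overlap moved most when WT replicate 10 was left out. Then 9 members, Nupr1, Ddit4 and Aldh18a1 among them, reached an unadjusted limma p below 0.05, against 10.4% of all transcripts, and the genotypes of 20 members did not overlap, against 32.8%. The smallest adjusted p of a member was 0.415 in that fit. Without Ucp1-KO replicate 15, 4 members reached the unadjusted threshold (5.16% of all transcripts) and 8 did not overlap (20.5%). Without Ucp1-KO replicate 13 the counts were 0 (9.14%) and 2 (27.8%), the median log2 fold change of the members was -0.05, and 26 members in place of 36 had a value below 0. Without WT replicate 11 or 12, 0 members reached the unadjusted threshold (1.88% and 2.61% of all transcripts), so that the unadjusted call of Ddit4 was lost in 3 of the 6 fits. Its log2 fold change lay between -0.80 and -0.46 over the 6 fits.

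Other genes of the pathway were listed by role, with earlier results of these data known. Of 13 genes for eIF2, its other kinases, phosphatases and exchange factor, 0 passed the test in either direction (limma, adjusted). At an unadjusted p below 0.05 there were also 0. Replicates 10 and 13 were both lowest in their genotype for 4 of the 13, against 33.9% of all transcripts tested. The sums of these 13 genes were level, from 209 to 228 RPKM. Eif2ak2, the kinase activated by double-stranded RNA, stood at 12.6, 11.6 and 10.6 RPKM in WT and at 16.4, 19.3 and 10.02 RPKM in Ucp1-KO and did not follow the order of the members. Of 18 further ATF4-related genes, 0 passed, 0 also without adjustment, and 8 had both cultures lowest. One of them, Slc1a4, a carrier of small neutral amino acids, stood at 3.69, 7.72 and 6.32 RPKM in WT and at 2.90, 4.20 and 4.04 RPKM in Ucp1-KO.

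ER chaperones, controlled largely by the other arms of the unfolded protein response, showed part of the same pattern. Of 16 genes 0 passed the test and 1, Xbp1, did so without adjustment, against 5.54% of all transcripts. Replicates 10 and 13 were lowest in their genotype for 11, against 33.9%. All 16 had a log2 fold change below 0, against 50.4%, with a median of -0.17. Xbp1, a transcription factor of that response (unadjusted p 0.033, adjusted p 0.868, limma), stood at 71.3, 84.3 and 75.1 RPKM in WT and 68.8, 62.3 and 59.2 RPKM in Ucp1-KO. In contrast to the members, Ucp1-KO replicate 15 held the lowest value of Xbp1. The 10 cytosolic synthetases outside the set had both cultures lowest for 4 genes, the 17 mitochondrial synthetases for 4 and the 9 mitochondrial chaperones and proteases for 5, and 0 genes of these lists passed the test with or without adjustment. Among the mitochondrial proteases, Lonp1 followed the members at 105, 142 and 145 RPKM in WT and at 83.2, 111 and 134 RPKM in Ucp1-KO.

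**Figure D5:**
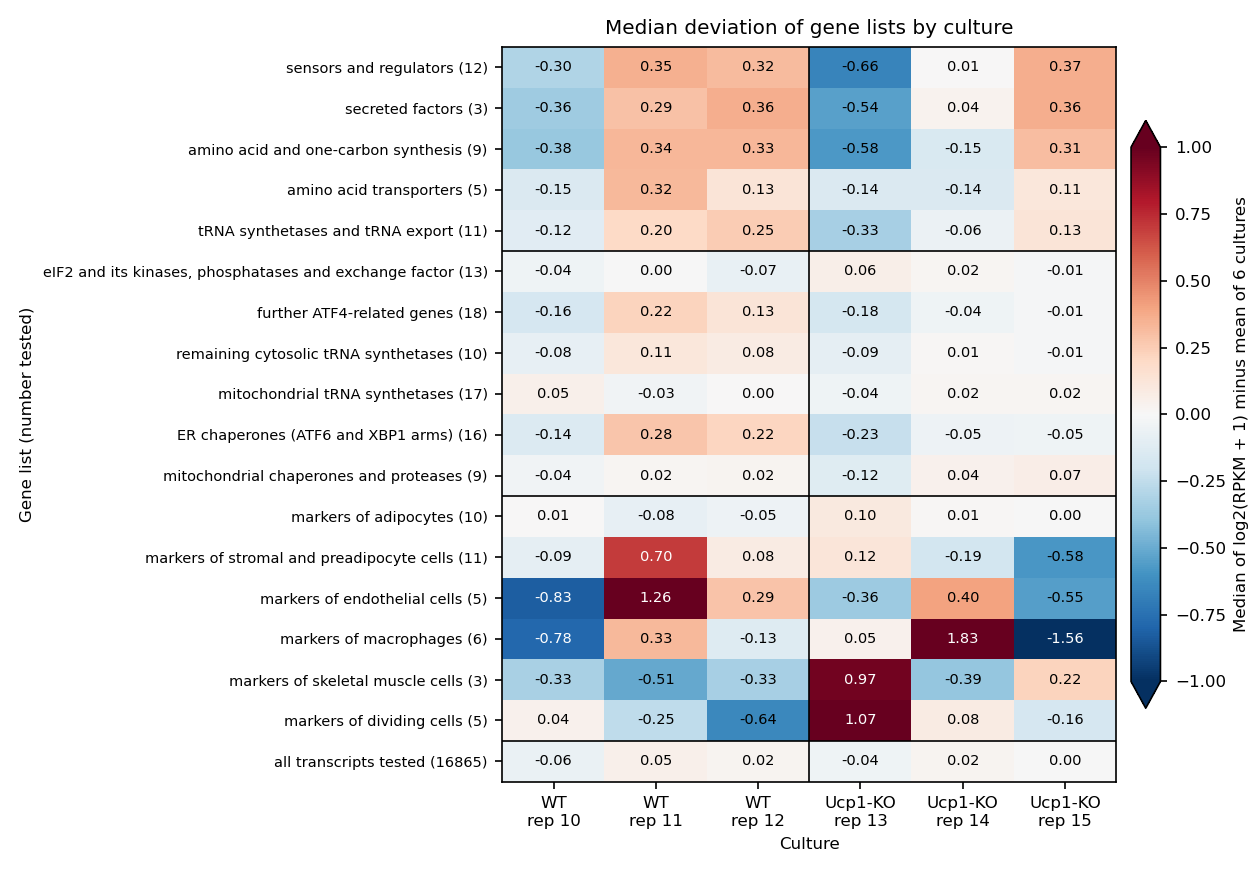
Median deviation of log2(RPKM + 1) from the mean of the 6 cultures (color and printed value) for each gene list (rows, number tested in brackets) and culture (columns). The upper 5 rows are the members by role and the middle 6 rows other pathway genes. The lower rows are markers of cell types and all transcripts tested. Medians in WT replicate 10 and Ucp1-KO replicate 13 were negative in all member rows. Both were also negative for further ATF4-related genes, other cytosolic synthetases, ER chaperones, and mitochondrial chaperones and proteases. The same held for endothelial markers and, at -0.06 and -0.04, for all transcripts tested. In the other rows they were not both negative.

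Markers of other cell types differed between cultures in their own ways. In a bulk sample, fewer cells of a type and less RNA per cell cannot be told apart. Summed macrophage markers (6 of 7 listed, as 1 gene appears under a single one of its symbols) ranged from 59.4 to 179 RPKM in WT and from 42.5 to 817 RPKM in Ucp1-KO, with the peak in replicate 14. Endothelial markers (5 of 5) summed to 2.79 RPKM in WT replicate 10, 34.1 and 15.9 RPKM in the other WT cultures and 5.67 to 16.0 RPKM in Ucp1-KO. Stromal and preadipocyte markers (12 of 12 listed) summed to 966 to 2151 RPKM in WT and to 857 to 1360 RPKM in Ucp1-KO. Like most members, all 11 tested stromal markers had a log2 fold change below 0, with a median of -0.44. Of these, 0 passed the test after adjustment, 2 had an unadjusted limma p below 0.05 (Dcn, a matrix proteoglycan, and Lum), and 3 did not overlap between genotypes, against 5.54% and 11.2% of all transcripts. In the other marker lists 0 genes passed after adjustment (limma), and the unadjusted p was below 0.05 for the adipocyte marker Cfd (0.0268, lower in Ucp1-KO) and the muscle marker Tnnt3 (0.0388, higher in Ucp1-KO). Of the 10 adipocyte markers 2 did not overlap between genotypes, and of the 5 markers of dividing cells 1 did not, Cdk1, which was higher in each Ucp1-KO culture. Markers of dividing cells (5 of 5) were highest in Ucp1-KO replicate 13 at 39.5 RPKM, against 9.34 to 15.5 RPKM in WT and 13.1 to 17.2 RPKM in the other Ucp1-KO cultures. Skeletal muscle markers (7 of 7 listed, 4 of them at 0 in at least 1 culture) summed to 5.92 to 15.7 RPKM. In WT replicate 10 the endothelial sum was the lowest of all cultures, and the macrophage and stromal sums, at 59.4 and 966 RPKM, were the lowest of the WT cultures. Ucp1-KO replicate 15, the highest Ucp1-KO culture for most members, had the lowest macrophage and stromal sums of all cultures, 42.5 and 857 RPKM, and Ucp1-KO replicate 13 the highest stromal sum of its genotype, 1360 RPKM. In Ucp1-KO replicate 13 the sums of dividing cells and of skeletal muscle were the highest of all cultures. The part of these markers in the levels of the members was not tested. Summed adipocyte markers were 33008 RPKM in WT replicate 10 and 32268 RPKM in Ucp1-KO replicate 13, within the range of the other cultures.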

How the data were processed

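RNA of 6 cultures of differentiated brown adipocytes was sequenced, 3 of each genotype, grouped by the sample labels. Libraries were made with TruSeq RNA v2, which does not keep strand. The submitters' processing notes name CASAVA and bcl2fastq. The values deposited by the authors are RPKM, which scale reads to transcript length and library size. They were produced with Genomatix software on NCBI mouse build 38 from single reads with a unique assignment. The authors' own test of the genotypes was not repeated here. All value columns matched a culture by name.

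The 28890 RefSeq rows among 168326 were used. The 16865 transcripts averaging 0.5 RPKM or more were compared with limma 3.58.1 (R 4.3.3) on log2(RPKM + 1), which understates changes of low genes, with an intensity trend, no covariates and Benjamini-Hochberg adjustment at 0.05. For single genes, RPKM values were also tested by exact permutation (two-sided). P-values set the difference between genotypes against the spread between these cultures, described in the series as independent. Read totals were recovered from RPKM values of Ensembl transcripts with GENCODE M21 lengths, and 99.98% of tested transcripts then gave whole reads in all cultures (tolerance 0.05 reads). limma and the recovery were tested on simulated data. Per-culture values are given for the regulators, secreted factors and enzymes, for most transporters, for Aars, Wars, Cars and Eprs, and for any other member with an unadjusted p below 0.05 or a 2-fold span over the cultures. The rest are given by range. Of each other list, genes with the smallest unadjusted p were eligible. Members and lists were chosen with earlier results of these data known. Other steps ran in Python 3.11.15 (scipy 1.17.1, pandas 2.3.3, numpy 2.4.6; figures in matplotlib 3.10.9). Alternatives were a constant of 0.1 RPKM, no minimum, 1 transcript per gene, median-of-ratios scaling, limma-voom on recovered reads, and leaving out each culture. Promoter stretches are from RefSeq, exon overlaps from GENCODE M21.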

Additional observations from a re-analysis of the deposited data

How the results depend on the processing

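With 3 cultures per genotype, no exact test could fall below p = 0.1, and for Slc7a3 the depth was a further limit. Adjusted calls numbered 0 for the members and for all transcripts tested under every alternative run. No paired analysis was possible because the replicate numbers 10 to 12 and 13 to 15 are not shared between genotypes. The number of members whose genotypes did not overlap was 1, against 11.2% of all transcripts. It became 2 with no minimum (with Slc7a3), where the share over all transcripts was not counted. With median-of-ratios scaling it was 3 (Eif2ak3, Ddit4 and Aars, against 11.8% of all transcripts). It lay between 1 and 20 when single cultures were left out (14.4% to 32.8% of all transcripts). The median log2 fold change of the members stayed below 0, between -0.36 without WT replicate 10 and -0.05 without Ucp1-KO replicate 13, and members lower in Ucp1-KO numbered 26 to 39. Members with an unadjusted p below 0.05 in limma numbered 1, and 2 with no minimum (Ddit4 and Slc7a3, the latter on 3 to 8 reads, against 1341 of all 23421 transcripts) or with median-of-ratios scaling (Ddit4 and Aars, against 1000 of 16865). Unadjusted calls over all transcripts ranged from 317 to 1754 in these fits. The order of the cultures in the members' medians and the number of members with an SD above the median (31 to 33 of 40) changed little with the constant, the scaling or a ratio in place of the SD. Of 440 log2 fold changes of single genes under the alternatives, 411 had the sign reported and 29 in 15 genes the other sign, each of the latter with a culture left out, and the cause was not tested. With single cultures left out, values ranged from -1.001 to 0.43 for Ddit3, -1.06 to 0.31 for Trib3, -0.51 to 0.028 for Atf4, -0.19 to 0.31 for Cebpg, -0.53 to 0.019 for Ppp1r15a, -0.23 to 0.22 for Sesn2, -0.62 to 0.21 for Stc2, -0.20 to 0.29 for Gdf15, -0.31 to 0.24 for Asns, -0.34 to 0.019 for Psat1, -0.12 to 0.23 for Psph, -0.48 to 0.35 for Cth, -0.31 to 0.0044 for Slc7a5, -0.39 to 0.11 for Eprs and -0.058 to 0.014 for Mars.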
